A study of Homo sapiens with 6 samples.

Results

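The genes described here encode extracellular matrix proteins and the enzymes, inhibitors and receptors that remodel the matrix. They were taken from the deposited table of differentially expressed genes by symbol alone: protein-coding collagens, laminins, thrombospondins, tenascins, matrilins, SPARC-related proteins (SPOCK), perlecan (HSPG2) and versican (VCAN), the MMP, ADAM, ADAMTS, TIMP, LOX and SERPIN families, fibronectin (FN1) and the collagen receptor MRC2. The rule found 39 genes among the 2462 listed, of which 1924 are protein-coding. RNA was sequenced from the bladder carcinoma cell line T24 (n = 3 libraries) and from its chemoresistant derivative T24-R (n = 3), which the sample labels call T24DDP. T24-R is a single resistant strain that was selected by exposing T24 to gemcitabine and cisplatin at rising concentrations over about a year, whereas the parental T24 cells were not selected. Whether drug was present when RNA was collected is not given in the sources used here, and although the methods speak in general of independent repeats, neither they nor the labels say for these libraries whether those of a strain came from separate cultures, so p-values measure only the spread between these samples, which may be technical.

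Cells build the extracellular matrix by secreting fibronectin, collagens, laminins and proteoglycans, which assemble into fibrils around cells and into the sheet-like basement membrane under epithelia. Metalloproteinases of the MMP, ADAM and ADAMTS families cut matrix and cell surface proteins, TIMPs and serpins inhibit proteases, and lysyl oxidases cross-link collagen fibres. The normal urothelium is anchored to its basement membrane through laminins, type VII collagen and the transmembrane type XVII collagen.

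Values are scaled counts, that is, reads per gene divided by 1 size factor per library (0.939 to 1.03 for T24 and 1.00 to 1.08 for T24-R), and 1170731 to 1411926 reads per library fell on the listed genes. Because the table holds only genes that had already passed a threshold on these 6 libraries, calls and p-values for the 39 genes describe the same contrast that placed them in the table and are not independent evidence. The informative values are the direction and size of each difference and how the libraries vary. Genes outside the table have no value here, and their absence does not show that they were unchanged. GENCODE 44 holds 204 protein-coding symbols that meet the rule, so 39 of them (19.1%) were listed, against 1924 of 20020 protein-coding genes (9.61%). The rule names FN1 and MRC2, which the study reported as overexpressed. Members were chosen with earlier results of these data known, so these shares are not an independent comparison. The listed share was 9 of 44 for collagens, 3 of 12 for laminins, 7 of 24 for ADAMTS and ADAMTSL genes, 2 of 21 for ADAMs, 4 of 24 for MMPs, 4 of 35 for serpins, 1 of 4 for TIMPs and 1 of 6 for lysyl oxidases. Well-known matrix genes such as SPARC, COL4A1, COL4A2, LAMB3, MMP2, MMP9, MMP14, LOX and POSTN were among those not listed.

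Most of the matrix genes were higher in T24-R. With limma and Benjamini-Hochberg adjustment over all listed genes (adjusted p below 0.05 and absolute log2 fold change above 1), 31 of the 39 were called higher and 7 lower, and MMP16 alone was not called. Of all listed genes, 69.2% were called higher, 29.2% lower and 98.3% in either direction, so being called says nothing about the matrix genes. The median log2 fold change was 1.97 over the 39 genes and 1.41 over all listed genes. With genes at the floor of detection (3 reads per library) placed at their bound, these medians were 1.74 and 1.32. The libraries of T24 and T24-R did not overlap for 31 genes higher in T24-R and 7 lower, against 70.0% and 29.1% of all listed genes, and they overlapped for COL4A4 alone.

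The direction of some genes depends on how libraries are scaled. TMM factors, computed from the listed genes, moved the median log2 fold change of all listed genes by −1.32, to 0.09. TMM takes most genes to be unchanged, whereas the listed genes were selected as changed, 69.2% called higher and 29.2% lower. Sign changes under TMM factors thus do not show which direction is right, and the cause of the shift was not tested. TMM factors left 13 of the 39 genes called higher and 7 called lower, against 585 and 721 of all listed genes (23.8% and 29.3%). EdgeR on the recovered reads called all 39, and 99.9% of all listed genes. Under TMM factors, 7 genes that were higher in T24-R changed sign, among them COL5A2, COL7A1, COL4A4, ADAMTS12, ADAMTSL5 and MMP16. The 7 genes called lower were called lower with TMM factors as well. Of the genes called higher, FN1, VCAN, THBS1, SPOCK1, COL1A1, COL8A2, LAMA4, ADAMTS9, ADAMTS13, ADAM28, SERPINA1, SERPINA5 and SERPINB5 were still called. Among them COL8A2, ADAM28 and SERPINA5 were at the floor in T24, so their TMM values rest on few reads. With the deposited scaling, their log2 fold changes at the bound were 1.74, 0.92 and 1.93.

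**Figure D1:**
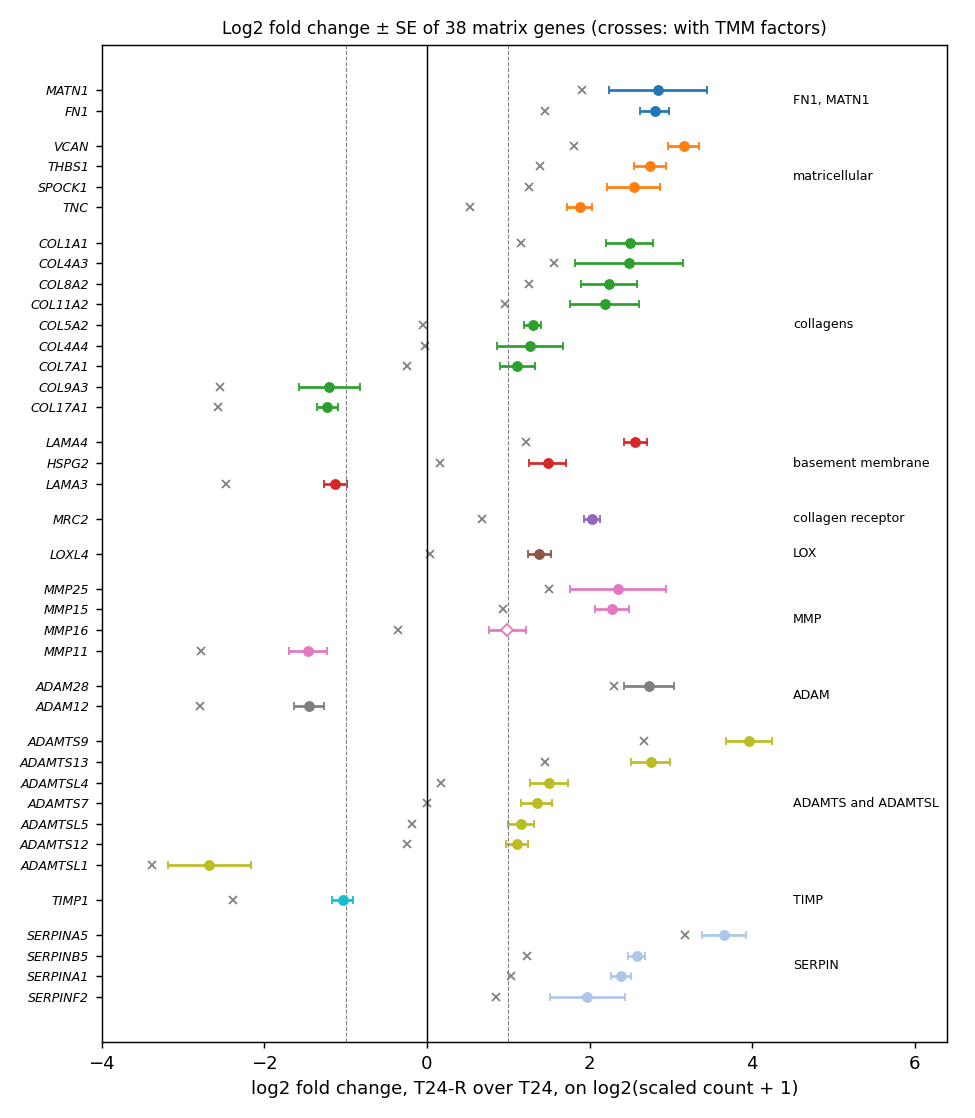
Log2 fold change (T24-R over T24, on the log2(value + 1) scale) of 38 of the matrix genes, grouped by role, with bars for the standard error, crosses for the value with TMM factors, an open diamond for the gene that was not called and dashed lines at the fold threshold. Of the 38 values, 31 lie above 0 with the deposited scaling and 25 with TMM factors, and ADAMTS9 has the highest value at 3.96.

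The sequences upstream of 8 example members are printed here, so that genes that rose and genes that fell can be read side by side. None of the 3 motifs described below occurs in all 8. RefSeq promoter windows (GRCh38.p14, 250 bases before to 50 after each start) matched 27 of the 39 genes. Each line gives the 250 bases before the start, 5′ to 3′ on the gene's own strand, for FN1 (chr2:215436069-215436318, minus), VCAN (chr5:83471494-83471743, plus), THBS1 (chr15:39580829-39581078, plus), TNC (chr9:115118158-115118407, minus), SERPINB5 (chr18:63476708-63476957, plus), LAMA3 (chr18:23872770-23873019, plus), TIMP1 (chrX:47582186-47582435, plus) and COL17A1 (chr10:104085881-104086130, minus). The LAMA3 window belongs to a start inside the span the table gives for that gene. The first 5 genes were higher in T24-R and the last 3 lower. Capitals mark matches on either strand to 3 motifs. The transcription factor SP1 was represented by the letters GGGCGG. For the growth-responsive factor AP-1, the letters searched were TGANTCA, where N is any base. The letters of the TATA box that positions the polymerase were given as TATAAA.
FN1: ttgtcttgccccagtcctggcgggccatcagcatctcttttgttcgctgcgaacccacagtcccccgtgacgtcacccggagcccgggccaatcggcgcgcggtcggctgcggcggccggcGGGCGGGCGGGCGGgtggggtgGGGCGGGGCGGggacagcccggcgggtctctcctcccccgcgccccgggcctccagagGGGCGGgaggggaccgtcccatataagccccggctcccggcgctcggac
VCAN: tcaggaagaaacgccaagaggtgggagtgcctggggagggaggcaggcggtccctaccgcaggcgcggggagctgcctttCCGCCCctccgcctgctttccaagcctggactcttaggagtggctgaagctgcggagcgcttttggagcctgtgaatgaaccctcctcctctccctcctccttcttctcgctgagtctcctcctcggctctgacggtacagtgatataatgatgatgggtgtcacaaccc
THBS1: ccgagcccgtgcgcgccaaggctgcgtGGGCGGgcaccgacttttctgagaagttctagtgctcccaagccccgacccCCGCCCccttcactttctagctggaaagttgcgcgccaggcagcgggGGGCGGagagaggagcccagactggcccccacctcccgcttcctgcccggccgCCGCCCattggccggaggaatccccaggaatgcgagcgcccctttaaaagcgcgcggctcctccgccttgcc
TNC: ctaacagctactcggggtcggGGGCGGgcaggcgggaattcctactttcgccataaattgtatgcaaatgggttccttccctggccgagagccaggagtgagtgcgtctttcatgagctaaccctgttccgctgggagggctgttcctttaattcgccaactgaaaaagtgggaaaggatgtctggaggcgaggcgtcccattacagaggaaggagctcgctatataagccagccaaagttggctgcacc
SERPINB5: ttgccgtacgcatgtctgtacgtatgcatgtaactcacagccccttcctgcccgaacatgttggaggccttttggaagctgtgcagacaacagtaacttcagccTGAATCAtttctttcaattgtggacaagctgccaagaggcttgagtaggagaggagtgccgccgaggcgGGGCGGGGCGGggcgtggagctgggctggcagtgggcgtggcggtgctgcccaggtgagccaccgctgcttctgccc
LAMA3: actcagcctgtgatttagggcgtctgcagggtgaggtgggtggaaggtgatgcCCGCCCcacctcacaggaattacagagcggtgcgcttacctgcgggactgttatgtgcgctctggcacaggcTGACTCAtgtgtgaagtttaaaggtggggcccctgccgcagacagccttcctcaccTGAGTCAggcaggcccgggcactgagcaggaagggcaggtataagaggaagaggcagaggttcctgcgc
TIMP1: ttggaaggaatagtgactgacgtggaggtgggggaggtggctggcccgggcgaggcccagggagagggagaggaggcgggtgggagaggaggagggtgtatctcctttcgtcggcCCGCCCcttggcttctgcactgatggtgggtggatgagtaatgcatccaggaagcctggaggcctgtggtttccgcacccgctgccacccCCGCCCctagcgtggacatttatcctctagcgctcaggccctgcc
COL17A1: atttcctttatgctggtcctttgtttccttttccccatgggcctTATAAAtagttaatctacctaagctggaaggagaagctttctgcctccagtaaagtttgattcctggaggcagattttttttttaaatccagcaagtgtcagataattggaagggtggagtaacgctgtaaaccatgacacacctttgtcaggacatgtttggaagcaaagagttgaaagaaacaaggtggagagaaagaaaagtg
Over the whole windows, GGGCGG was found in 24 of the 31 windows of these 27 genes (77.4%) and in 45.0% of all 35116 RefSeq windows. The FN1 window holds 6 matches and the THBS1 window 4. GC content differs between windows, for example 40.7% for COL17A1 and 85.3% for LOXL4. The background was every window, whatever its base composition, and the part of GC content in these shares was not tested. The AP-1 letters were found in 3 of the 31 windows, those of ADAMTS12, LAMA3 and SERPINB5 (9.68%, against 7.71% of all windows). LAMA3, which was lower in T24-R, has 2 of these matches and SERPINB5, which was higher, has 1, so the letters occur in genes of either direction. TATAAA was found in 2 of the 31 windows, those of COL17A1 and COL7A1 (6.45%, against 11.5% of all windows). These matches lie at positions −206 and −124 from the start. Only the exact letters were searched, so a window without a match may hold a variant of the TATA box. A match is a description of letters in a window and not evidence of binding.

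Fibronectin is the glycoprotein that cells assemble into fibrils through integrins. Among the 39 listed matrix genes, FN1 was by far the most abundant in T24-R. FN1 (chr2:215360440-215436172, minus strand) had scaled counts of 13647, 15083 and 17443 in T24 against 94772, 97507 and 131642 in T24-R. Every T24-R library was far above every T24 library, and T24-R replicate 3 stood above the other T24-R libraries. The means were 15391 ± 1917 and 107974 ± 20543 (SD, n = 3 each), a 7.02-fold difference. Per kilobase of gene length, the mean level of FN1 was 889 ± 111 in T24, second to TIMP1 at 1909 ± 205. In T24-R the order turned round, with FN1 at 6236 ± 1186 and TIMP1 at 932 ± 104.

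FN1 also changed how the summed matrix signal was made up. The 39 genes together took 2.18, 2.46 and 2.71% of the scaled counts of all listed genes in T24 and 11.5, 11.8 and 12.9% in T24-R. Within the 39 genes, FN1 took 47.1, 48.7 and 52.4% in T24 against 70.6, 71.0 and 74.1% in T24-R. The summed scaled count of the other 38 genes was 15345, 15862 and 15843 in T24 against 39546, 39804 and 46107 in T24-R. Leaving out VCAN, THBS1 and TNC too, the sum of the other 35 genes was 13144, 13503 and 13141 against 26167, 26549 and 25420. On the log2 scale the differences of these mean sums were 1.41 and 0.97. TMM factors shifted the median listed gene by −1.32. The sums were not computed under TMM factors. TMM factors were computed from genes selected as changed, so that shift does not decide the direction of either sum. FN1 with VCAN, THBS1 and TNC made up 54.7 to 60.5% of the sum in T24 and 80.5 to 85.7% in T24-R. Both the FN1 share and this share were separated between the strains in all 3 libraries.

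**Figure D2:**
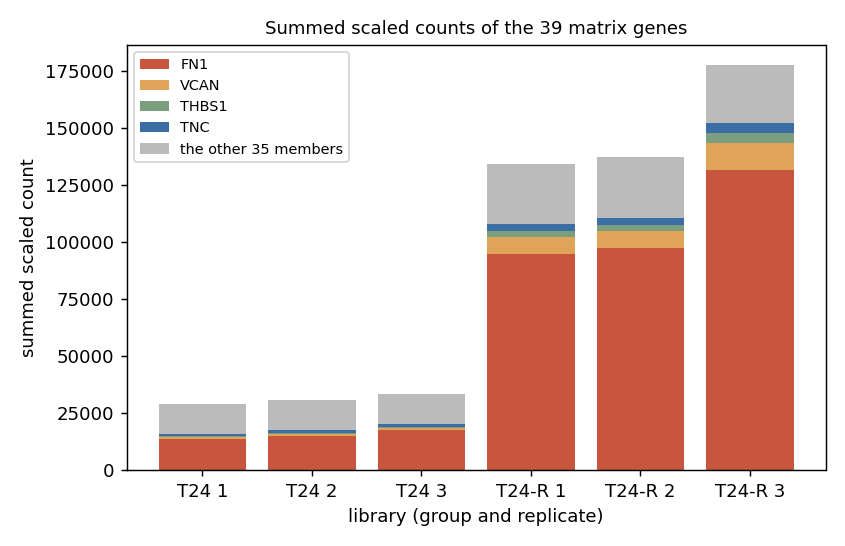
Stacked bars of the summed scaled counts of the 39 matrix genes in each of the 6 libraries, split into FN1, VCAN, THBS1, TNC and the other 35 genes. The bars reach 28992 to 33286 in T24 against 134318 to 177749 in T24-R, and FN1 is the largest block of every bar.

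The matricellular proteins THBS1, TNC and SPOCK1 and the large proteoglycan VCAN bind cell surfaces and other matrix proteins without forming the main fibrils. All 4 were called higher in T24-R, beside 69.2% of all listed genes. Under TMM factors VCAN, THBS1 and SPOCK1 were still called, beside 23.8% of all listed genes called higher, while TNC was at 0.52 and was not. VCAN (chr5:83471465-83582303, plus strand) had scaled counts of 868, 949 and 1075 in T24 against 7355, 7312 and 11714 in T24-R. The groups were far apart, and T24-R replicate 3 was the highest library. The difference was 9.12-fold, with a log2 fold change of 3.16 (SE 0.19, adjusted p = 2.25e-06, limma), or 2.93 without T24-R replicate 3. THBS1 (chr15:39581079-39599466, plus strand), which encodes thrombospondin 1, had 468, 478 and 531 in T24 against 2881, 2714 and 4652 in T24-R. The same library was highest, and the log2 fold change was 2.75 (SE 0.20), or 2.50 without it. TNC (chr9:115019578-115118257, minus strand), the tenascin of wound and tumour stroma, had 865, 932 and 1095 in T24 against 3143, 3229 and 4321 in T24-R. The strains did not overlap, and the log2 fold change was 1.88 (SE 0.15). SPOCK1, a proteoglycan of the SPARC family, was low in T24 at 6.39, 14.3 and 12.6 and reached 68.9, 55.4 and 76.4 in T24-R.

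MRC2, the endocytic receptor that takes up collagen fragments, was higher to a similar degree in every library. MRC2 (chr17:62627401-62693597, plus strand) had scaled counts of 655, 690 and 654 in T24 against 2788, 2805 and 2561 in T24-R. The spread within each strain was small beside the 4.08-fold difference, and the log2 fold change was 2.03 (SE 0.10, adjusted p = 6.97e-07, limma). With TMM factors it was 0.67 and was not called. The matrilin MATN1 stood at 4.26, 2.04 and 0 in T24 and at 24.9, 18.5 and 10.8 in T24-R, close to the detection floor in the parental cells. The exons of MATN1 overlap the antisense gene MATN1-AS1 over 18.2% of their length, and those of MRC2 overlap another antisense gene over 10.3%, and whether the counting used strand is not given in the sources used here.

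**Figure D3:**
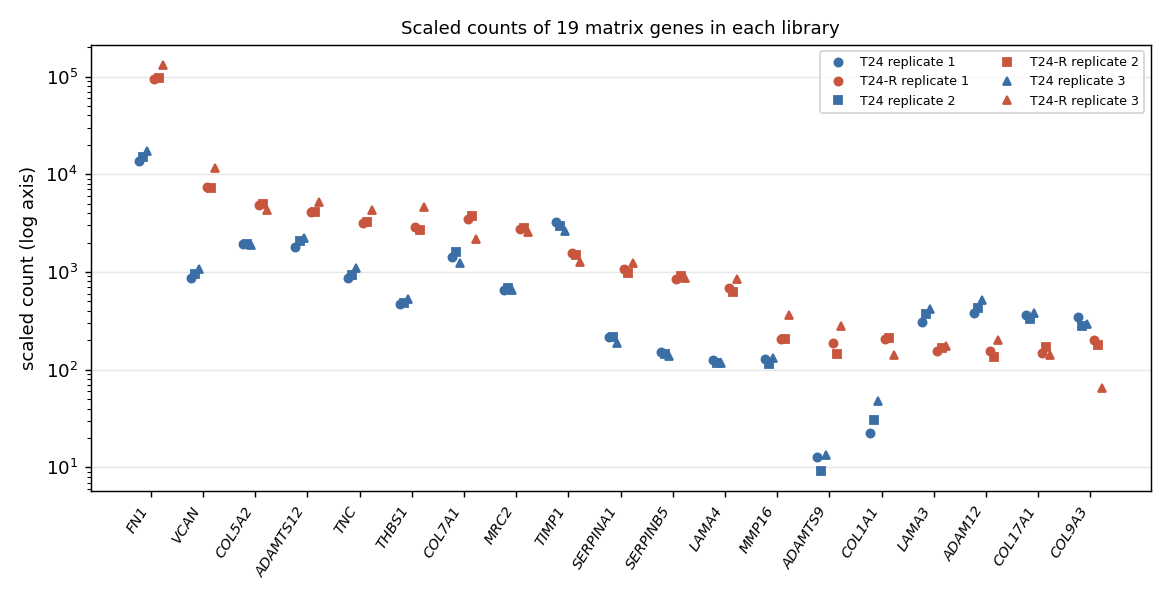
Scaled counts (log axis) of 19 matrix genes given in every library, with 3 blue points for T24 and 3 red points for T24-R per gene, shaped by replicate number. The points of the strains do not overlap for any of these genes, and FN1 reaches 131642 in T24-R replicate 3. Of all listed genes, 70.0% were higher in T24-R without overlap and 29.1% lower without overlap.

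The listed collagens moved in both directions, as did the listed genes at large. Of the 9, 7 were called higher and 2 lower, beside 69.2% and 29.2% of all listed genes. Under TMM factors COL5A2, COL7A1 and COL4A4 turned negative as well. COL5A2, a chain of the type V collagen that sets fibril diameter, was the most abundant collagen of the table. COL5A2 (chr2:189031896-189225312, minus strand) had scaled counts of 1918, 1930 and 1883 in T24 against 4839, 4954 and 4348 in T24-R. The groups were well apart, at 1910 ± 24.1 and 4714 ± 322 (SD, n = 3), 2.47-fold higher in T24-R, but the log2 fold change of 1.30 (SE 0.10) became −0.05 under TMM factors. COL7A1, the anchoring fibril collagen, had 1430, 1595 and 1234 in T24 against 3513, 3760 and 2161 in T24-R. Its T24-R replicate 3 lay between the T24 libraries and the other T24-R libraries. The log2 fold change of COL7A1 (chr3:48564073-48595267, minus strand) was 1.11 (SE 0.21), falling to 0.96, below the threshold, without T24-R replicate 2 and reaching 1.36 without T24-R replicate 3.

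COL1A1, the main chain of type I collagen, was scarce in T24 at 22.4, 30.6 and 47.4 and stood at 209, 212 and 142 in T24-R. COL1A1 (chr17:50183289-50201632, minus strand) was thus 5.61-fold higher by the means, with no overlap and with T24-R replicate 3 the lowest of its strain (log2 fold change 2.49, SE 0.29). The basement membrane collagen genes COL4A3 and COL4A4 lie head to head on chromosome 2 with starts 112 bases apart in the table. COL4A3 had 0, 2 and 7 reads in T24 and 21, 15 and 12 in T24-R. COL4A4 had scaled counts of 22.4, 12.3 and 9.68 in T24 against 38.9, 49.9 and 21.5 in T24-R. The lowest T24-R value of COL4A4 lay under the highest T24 value, and its call was lost without T24 replicate 3 (log2 fold change 1.02), T24-R replicate 1 (1.18) or T24-R replicate 2 (1.01). COL8A2 was at the floor in T24, with 2, 1 and 1 reads, and at 8, 15 and 9 reads in T24-R, at least 3.35-fold higher. COL11A2 stood at 6.39, 8.17 and 2.90 in T24 and at 35.9, 35.1 and 17.6 in T24-R.

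The collagens that were lower in T24-R were COL17A1 and COL9A3. COL17A1 encodes the transmembrane collagen of hemidesmosomes, the junctions that hold epithelial cells to the basement membrane. COL17A1 (chr10:104031286-104085957, minus strand) had scaled counts of 365, 330 and 382 in T24 against 149, 172 and 140 in T24-R. All T24-R libraries were below all T24 libraries by a wide margin, and the log2 fold change was −1.22 (SE 0.13, adjusted p = 3.84e-05, limma). COL9A3 (chr20:62816244-62841159, plus strand), a chain of the cartilage collagen type IX, had 346, 283 and 291 in T24 against 200, 177 and 65.6 in T24-R. Here T24-R replicate 3 was far below the others, and without it the log2 fold change of −1.20 (SE 0.37) became −0.70 and was no longer called.

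Laminins are the 3-chain glycoproteins of basement membranes, and LAMA4 and LAMA3 moved in opposite directions. LAMA4 (chr6:112108760-112254939, minus strand), a chain found in vessel and mesenchymal basement membranes, had scaled counts of 126, 117 and 117 in T24 against 682, 627 and 853 in T24-R. Its groups were far apart, 6.00-fold by the means, with a log2 fold change of 2.56 (SE 0.14, adjusted p = 1.44e-06, limma). LAMA3 (chr18:23689443-23956222, plus strand), the alpha chain of the laminin that anchors epithelia, had 310, 371 and 416 in T24 against 157, 166 and 174 in T24-R. Every T24-R library of LAMA3 was below every T24 library (log2 fold change −1.13, SE 0.14). HSPG2, which encodes the basement membrane proteoglycan perlecan, had 20.2, 28.6 and 24.2 in T24 against 59.9, 68.3 and 81.3 in T24-R. Its log2 fold change was 1.49, and 0.17 and not called with TMM factors.

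ADAMTS9 encodes a secreted protease that cleaves versican and aggrecan. ADAMTS9 (chr3:64515654-64688000, minus strand) had scaled counts of 12.8, 9.19 and 13.5 in T24 against 187, 146 and 281 in T24-R. All T24-R values were more than 10 times the T24 values, the difference of means was 17.3-fold, and the log2 fold change was 3.96 (SE 0.28, adjusted p = 4.30e-06, limma), or 3.71 without T24-R replicate 3. Its substrate gene VCAN was higher in the same libraries. ADAMTS12 (chr5:33523535-33892192, minus strand), a protease that acts on cartilage proteins, was the most abundant listed gene of the family. It had scaled counts of 1823, 2091 and 2242 in T24 against 4088, 4085 and 5160 in T24-R. The strains did not overlap, but the log2 fold change of 1.11 (SE 0.14) came to −0.24 under TMM factors and was 0.999, just under the threshold, without T24-R replicate 3.

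Of the other 5 ADAMTS and ADAMTSL genes, 4 were called higher and 1 lower, beside 69.2% and 29.2% of all listed genes. ADAMTS13, the protease of von Willebrand factor, stood at 11.7, 14.3 and 11.6 in T24 and at 103, 99.8 and 70.5 in T24-R. ADAMTS7 had a log2 fold change of 1.35 (0.00 under TMM factors), and 14.7% of its 50-base stretches also occur in other annotated genes, its pseudogenes among them, so that its counts are uncertain. The ADAMTS-like genes encode matrix proteins without a protease domain. ADAMTSL5 and ADAMTSL4 had log2 fold changes of 1.16 and 1.51, and under TMM factors they came to −0.19 and 0.17, neither of which was called. ADAMTSL1 had 2, 13 and 5 reads in T24 and none in any T24-R library, at least 2.33-fold lower.

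The 2 listed ADAMs, which shed proteins from the cell surface, moved in opposite directions. ADAM12 (chr10:126012381-126388455, minus strand) had scaled counts of 384, 433 and 521 in T24 against 154, 135 and 204 in T24-R. The T24 libraries were all higher, 2.72-fold by the means (log2 fold change −1.45, SE 0.18, adjusted p = 8.90e-05, limma). ADAM28 had no read in any T24 library and 7, 7 and 4 reads in T24-R, at least 1.90-fold higher.

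Of the 4 MMPs, MMP15 and MMP25, both membrane-anchored, were called higher, and MMP11, the secreted stromelysin 3, was called lower. Among all listed genes, 69.2% were called higher and 29.2% lower. MMP15 had scaled counts of 86.2, 50.1 and 60.0 in T24 against 289, 352 and 304 in T24-R. Its groups were well apart, with a log2 fold change of 2.28 (SE 0.21). MMP11 had 72.4, 56.2 and 51.3 in T24 against 23.9, 18.5 and 20.6 in T24-R, again without overlap (log2 fold change −1.46, SE 0.23). MMP25 stayed low, from 0 to 4.09 in T24 and from 5.88 to 13.9 in T24-R, and 30.6% of its exonic length overlaps the antisense gene MMP25-AS1. MMP16, another membrane-anchored member, had 129, 115 and 131 in T24 against 209, 204 and 361 in T24-R. The groups did not overlap, but T24-R replicate 3 was far above the other libraries, and the log2 fold change was 0.99 (SE 0.22), under the threshold, 0.72 without that library and −0.36 under TMM factors.

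TIMP1, the secreted inhibitor of matrix metalloproteinases, was the one listed TIMP and was lower in T24-R. TIMP1 (chrX:47582313-47586789, plus strand) had scaled counts of 3234, 2986 and 2605 in T24 against 1548, 1508 and 1252 in T24-R. Every T24-R library lay below every T24 library, at means of 1436 ± 160 against 2942 ± 316 (SD, n = 3), 2.05-fold lower. The log2 fold change of −1.03 (SE 0.13, adjusted p = 8.26e-05, limma) stood close to the threshold, and it came to −0.96 without T24 replicate 1 and −0.94 without T24-R replicate 3, neither of which was called. With TMM factors it was −2.39.

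The serpins, a family of mostly secreted protease inhibitors, were called higher in all 4 listed cases, beside 69.2% of all listed genes. With TMM factors 3 of the 4 were still called, beside 23.8% of all listed genes called higher, while SERPINF2 was at 0.85 and was not. SERPINB5 (chr18:63476761-63505085, plus strand), which encodes the intracellular serpin maspin, had scaled counts of 151, 145 and 138 in T24 against 844, 906 and 861 in T24-R. It had the tightest libraries of the family, 6.01-fold apart by the means (log2 fold change 2.58, SE 0.11, adjusted p = 4.06e-07, limma). SERPINA1 (chr14:94376747-94390693, minus strand), which encodes the neutrophil elastase inhibitor alpha-1-antitrypsin, had 218, 218 and 190 in T24 against 1072, 987 and 1228 in T24-R. Its strains were likewise far apart, 5.26-fold by the means. SERPINA5, the protein C inhibitor, had no read in T24 and 11, 12 and 13 reads in T24-R, at least 3.80-fold higher. SERPINF2, the plasmin inhibitor, rose from at most 5.32 in T24 to 11.8 or more in T24-R. LOXL4, the listed lysyl oxidase, had very even libraries, at 76.6, 75.6 and 76.5 in T24 against 184, 197 and 223 in T24-R (log2 fold change 1.38, SE 0.14, and 0.04 under TMM factors).

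**Figure D4:**
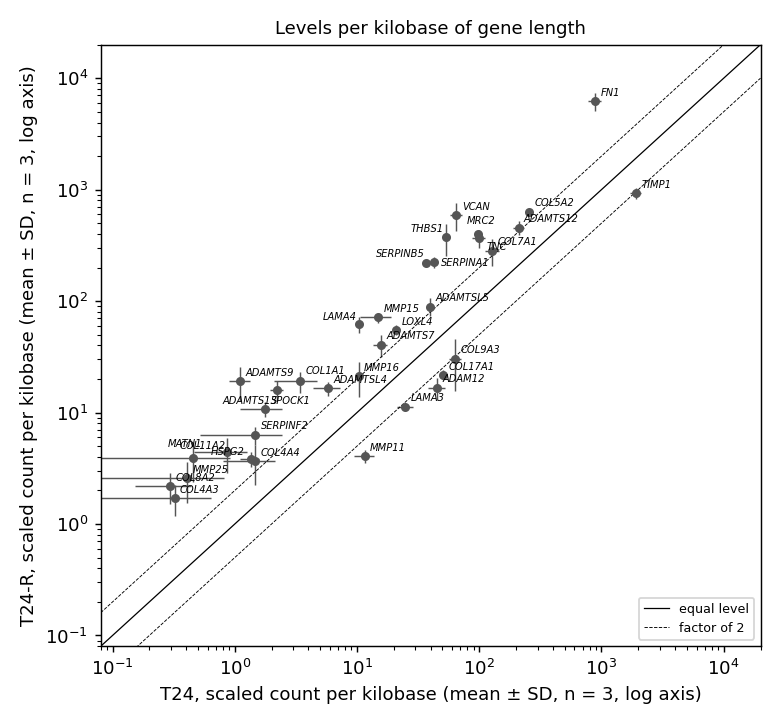
Mean scaled count per kilobase of gene length in T24 (x axis) and T24-R (y axis), both log axes, for 35 matrix genes with a mean above 0 in both strains, with bars for the SD (n = 3), a solid diagonal for equal levels and dashed lines for a factor of 2. FN1 lies highest at 6236 in T24-R, and TIMP1, below the diagonal, lies farthest right at 1909 in T24.

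By level per kilobase in T24-R, FN1 at 6236 and TIMP1 at 932 came first, with COL5A2 at 632 ± 43.2 and VCAN at 593 ± 171 (SD, n = 3) below them, and COL5A2 and VCAN did not differ beyond their spread. In T24 VCAN had stood at 65.0 ± 7.06 per kilobase, rank 9 of the 39, against rank 5 in T24-R. ADAMTS12, MRC2, THBS1 and TNC followed in T24-R between 455 and 370 per kilobase, with THBS1 and TNC at 373 ± 117 and 370 ± 68.2 not separable. Gene length is the deposited one, which is 17315 bases for FN1 and 7453 for COL5A2. Their canonical transcripts have 8390 and 6829 bases, so levels and ranks between genes depend on the length used. At the low end, 9 genes had a mean under 30 in the higher strain, and their fold changes rest on few reads.

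T24-R replicate 3 differed from the other T24-R libraries over the matrix genes more than those differed from each other. Over the 25 genes with a T24-R mean of at least 100, its median absolute log2 deviation from the mean of replicates 1 and 2 was 0.383, against 0.0896 between replicates 1 and 2. Over the 1077 such genes of the whole table the values were 0.324 and 0.0899, so this library stood apart over the whole table and not over the matrix genes alone. Replicate 3 was beyond 0.5 in 15 of the 39 genes, 4 above and 11 below. This count was not made over all listed genes, and it includes genes with few reads. COL4A4, COL11A2 and MATN1 had T24-R means of only 36.8, 29.5 and 18.1. Upward deviations were those of genes such as MMP16 (0.81), ADAMTS9 (0.75), THBS1 (0.73) and VCAN (0.68), and downward ones those of genes such as COL9A3 (−1.51), COL4A4 (−1.01), COL11A2 (−0.97), MATN1 (−0.95), COL7A1 (−0.75) and COL1A1 (−0.56).

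The deviation went with base composition. Across the 25 genes, which all come from the same libraries, it had Pearson's r of −0.79 and Spearman's rho of −0.78 with the GC content of the canonical transcript, a description across genes and not across samples. Over all 39 genes these were −0.56 and −0.57. With transcript length, the deviation had a rho of 0.56 over the 25 genes and 0.38 over all 39. Transcripts with low GC content, such as MMP16 at 36.4% and VCAN at 42.5%, were high in replicate 3, though SERPINB5 at 40.1% was near the other libraries (−0.02). Those with high GC content, such as COL9A3 at 67.4% and COL7A1 at 64.8%, were low in it. The deviation of replicate 2 from replicate 1 had a rho of 0.28 with GC content, and the log2 fold change between the strains one of −0.22. Without replicate 3, 35 of the 39 genes were called, against 89.3% of all listed genes. The part of GC content or length in the results was not tested.

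**Figure D5:**
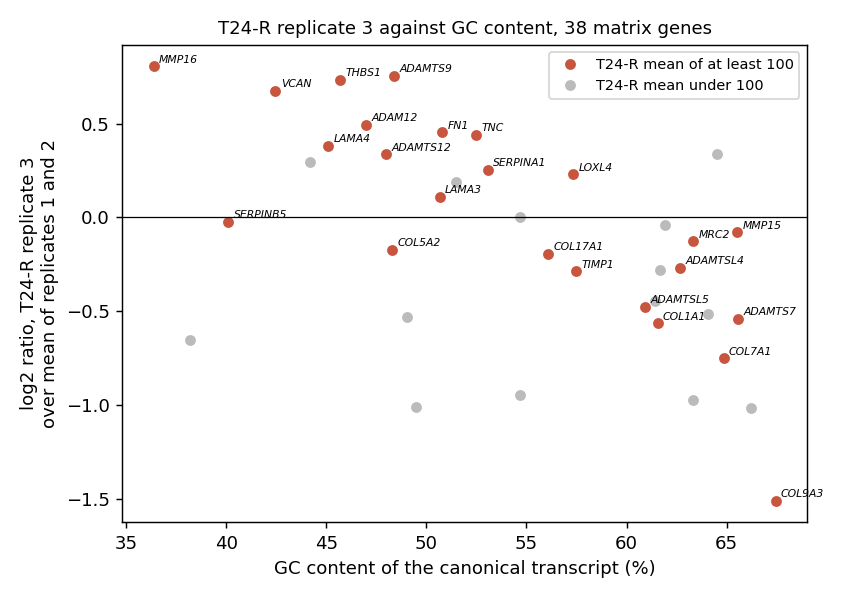
Log2 deviation of T24-R replicate 3 from the mean of T24-R replicates 1 and 2 (y axis) against GC content of the canonical transcript in percent (x axis), 1 point for each of 38 matrix genes, red and named where the T24-R mean reached 100. MMP16 and VCAN, of low GC content, lie above 0 and genes of high GC content such as COL9A3, at −1.51, below it.

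Genes that act with the matrix were looked up from lists drawn up with earlier results of these data known. Of 32 matrix receptors, 9 were listed and all 9 were called higher, beside 69.2% of all listed genes called higher and 98.3% called in either direction, although DDR1, ITGA2 and ITGB2 turned negative under TMM factors. SDC2, a heparan sulphate proteoglycan that binds fibronectin at the cell surface, stood at 73.4, 71.5 and 97.8 in T24 and at 826, 830 and 888 in T24-R. The collagen receptor DDR1 stood at 574, 577 and 604 in T24 and at 1391, 1434 and 1310 in T24-R. BCAM, a laminin receptor, had a log2 fold change of 1.81. The other receptors were the integrin chains ITGB4, ITGA7, ITGB3, ITGB6, ITGA2 and ITGB2, with log2 fold changes between 1.01 and 4.18, and ITGA2 came to 0.87, under the threshold, once T24-R replicate 3 was left out.

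Of 22 genes of the plasminogen system and other matrix proteases, 8 were listed. Of these, 4 were higher and 4 lower, beside 69.2% and 29.2% of all listed genes. PLAU, the urokinase that activates plasminogen, had scaled counts of 2893, 2816 and 2633 in T24 against 8100, 8184 and 4293 in T24-R. PLAT, the tissue plasminogen activator, had 474, 453 and 464 in T24 against 1885, 1826 and 1265 in T24-R. Both were higher without overlap, with T24-R replicate 3 the lowest of its strain, and PLAU turned to −0.11 under TMM factors. The heparan sulphate cleaving enzyme HPSE and the protease receptor F2RL1 were higher as well, by 1.92 and 1.53 on the log2 scale. F3 (tissue factor), the cysteine proteases CTSL and CTSK and the hyaluronidase HYAL2 were lower, with log2 fold changes of −2.19, −1.29, −1.14 and −1.22. The calls of CTSL (−0.97) and CTSK (−0.93) were lost without T24-R replicate 3.

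Of 21 collagen and matrix maturation enzymes, 5 were listed, 3 called higher and 2 lower, beside 69.2% and 29.2% of all listed genes. The peroxidasin PXDN, which cross-links type IV collagen, the prolyl hydroxylase P4HA2 and the procollagen protease BMP1 were called higher (log2 fold changes 1.65, 1.29 and 1.21), and P4HA2 and BMP1 turned negative under TMM factors. The prolyl hydroxylase P3H2 and the procollagen protease enhancer PCOLCE2 were called lower (−1.03 and −1.20). Of 44 further matrix proteins outside the symbol rule, 8 were listed. Of these, 7 were higher and 1 lower, beside 69.2% and 29.2% of all listed genes. The small proteoglycan biglycan (BGN) was at the floor in T24 and stood at 46.9, 44.3 and 59.7 in T24-R, at least 16.5-fold higher. The microfibril protein MFAP2 stood at 22.4, 22.5 and 38.7 in T24 and at 251, 206 and 104 in T24-R. LTBP3, TGFBI, BCAN, FRAS1 and HAPLN3 were higher by 1.04 to 1.89 on the log2 scale, HAPLN3 turned negative under TMM factors, and IGFBP3 was lower (−1.09, and −0.76 and not called without T24-R replicate 3). Of 16 TGF-beta ligands and receptors, TGFB2, INHBA and INHBB were listed and called higher, beside the same 69.2% of all listed genes. With TMM factors their log2 fold changes were 2.65, 1.40 and 0.51. INHBA, the activin A subunit, stood at 426, 514 and 453 in T24 and at 2882, 3056 and 3453 in T24-R.

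Markers of cell types that make matrix were looked up in the same way. Of 16 markers of mesenchyme or fibroblasts, 2 were listed, ACTA2 higher (log2 fold change 1.29, negative under TMM factors) and S100A4 lower (−1.20), and the summed listed level was 77.6 to 90.0 in T24 against 93.0 to 114 in T24-R. Of 5 endothelial markers, PECAM1 was listed, with 4.26, 0 and 0.968 in T24 against 21.0, 29.6 and 32.3 in T24-R, and of 5 leukocyte markers none was. Of 21 urothelial markers, 3 were listed, with a summed level of 1392 to 1583 in T24 against 399 to 478 in T24-R. Most of that sum was PPARG, which was lower in T24-R, at means of 1282 and 397. KRT19 was lower too, at the floor in every T24-R library. GATA3 went the other way and was called higher. It was at the floor in T24 and stood at 35.9, 48.0 and 43.1 in T24-R, at least 13.9-fold higher. The part of these markers in the results was not tested. In such bulk libraries, a difference in the share of cells that express a gene and a difference in RNA per cell cannot be told apart.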

How the data were processed

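RNA of cultured T24 and T24-R cells was sequenced, with 3 libraries of each strain. The protocol in the labels names retinas, another kit and a mouse build, at odds with the cell line, and the methods of the study were followed. They name an NEBNext Ultra kit, fastp, alignment to GRCh38 with HISAT2, featureCounts and DESeq2. The annotation version and the use of strand are not given in the sources used here. The signal values deposited by the authors are gene counts divided by 1 size factor per library. All values were whole multiples of a step in each library (tolerance 1e-06), so whole reads were recovered for 100% of values. The authors' group means, fold changes and p-values were not used, and 0 columns of per-library values were left out.

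The deposited table lists 2462 genes that passed the authors' thresholds on the same libraries. The values were tested with limma 3.58.1 (lmFit, eBayes with trend, R 4.3.3) on log2(value + 1), T24-R against T24, over all listed genes, two-sided, with Benjamini-Hochberg adjustment, without a block. Fold changes on this scale understate the change of low genes. Genes were called at an adjusted p below 0.05 and an absolute log2 fold change above 1. An exact permutation test of 3 against 3 libraries cannot give a p under 0.1 and was not used. A group with 3 reads or fewer in every library was taken to be at the floor, and a fold against it, with 3 reads in each library, is a lower bound. Reads carry no molecular identifiers, so floors cover counting error only. Alternatives were other pseudocounts, a filter on means, TMM factors, a replicate block, limma's treat, and count models on the recovered reads with DESeq2 1.42.0 or edgeR 4.0.16, and leaving out each library. The fits were tested on simulated data.

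Members and gene lists were chosen with earlier results of these data known. Values in every library are given for FN1, MRC2 and THBS1, which the study names, for members with a mean of at least 1000 in the higher strain, and for the 8 highest and the 8 lowest members by log2 fold change, if their mean reached 100 in the higher strain. The others serve as examples of their class (up to 4, by mean level) or are given by counts, except that the few members of small classes and those near the floor were also named after their values were seen. Gene spans are those of the table. GENCODE 44 held all 39 identifiers, each on the table's chromosome, with 10 spans identical to the table's, and GC content is that of its canonical transcripts. One gene that met the rule is counted but not shown by name and is not reported here.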

Additional observations from a re-analysis of the deposited data

How the results depend on the processing

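Over the 38 genes shown by name and the settings that keep all libraries, 294 values kept their direction and their side of the thresholds, 33 lost a call, 2 gained one and 6 changed sign. All 6 sign changes came with TMM factors, at log2 fold changes of −0.24 for ADAMTS12, −0.19 for ADAMTSL5, −0.0273 for COL4A4, −0.0537 for COL5A2, −0.24 for COL7A1 and −0.36 for MMP16. TMM factors left 13 matrix genes called higher and 7 lower, and 585 listed genes higher and 721 lower, against 1703 and 718 with the deposited scaling. Limma's treat, which tests against the fold threshold itself, called 22 matrix genes higher and 2 lower, and 1034 listed genes higher and 264 lower. The count models on recovered reads called 32 matrix genes higher and 7 lower, MMP16 included. Over all listed genes they called 1740 higher, and 720 (edgeR) or 721 (DESeq2) lower. Leaving out 1 library gave 30 to 32 matrix genes higher and 5 to 7 lower, and 1628 to 1667 listed genes higher and 571 to 699 lower. Requiring a mean of 10 removed 7 matrix genes and left 25 higher and 6 lower, and 1402 listed genes higher and 651 lower. The cause of these changes was not tested, apart from the mean filter, which leaves fewer genes.

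Libraries of the strains share replicate numbers, and the deviations from the group means of same-numbered libraries correlated at 0.124, 0.0244 and 0.181 over 2094 genes. Each T24 library correlated best with the T24-R library of its number, whereas T24-R 2 correlated best with T24 1 (0.109). Such low correlations do not decide whether the numbers pair the libraries, and the main fits used no block. The replicate block gave 31 matrix genes higher and 7 lower, and 1704 and 719 of all listed genes. Depth limits the genes with few reads, and 3 genes were at the floor in T24 and 1 in T24-R.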
